A study of Mus musculus with 6 samples.

Results

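Carbonic anhydrases are the zinc enzymes that interconvert carbon dioxide and bicarbonate. Of 10 listed mouse genes of this family, 9 were measured here in left ventricle of sickle and control mice, among 21506 genes in all. A gene was taken where array platform annotation gave a row of the deposited table to that symbol alone, and among several rows of a gene the row was chosen by its mean brightness over the 6 arrays. Each of the 9 genes had 1 row, so brightness decided nothing here. The row of Car14, a transmembrane enzyme, was also assigned to Aph1a, and Car14 was not analysed here. The family was put together with the differences between sickle and control mice already known, so the values below describe its genes and the number of them that passed a test supports nothing further.

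Total RNA of left ventricular tissue from 3 control and 3 sickle mice was hybridised to 6 arrays. All were males of 10 to 14 weeks on a mixed B6;129 background. The sickle mice were homozygous for the engineered alleles Hbatm1(HBA)Tow, a human alpha-globin, and Hbbtm2(HBG1,HBB*)Tow, human gamma-globin with sickle beta-globin. The control mice carried Hbatm1(HBA)Tow and Hbbtm3(HBG1,HBB)Tow, human gamma-globin with non-sickling beta-globin, on both chromosomes. Both groups thus carried human alpha- and gamma-globin, and no mouse with its own globins was measured. The labels list 3 samples a group without saying how the tissue of each was taken. The p-values thus set a difference against the spread between these samples, with limma sharing variance across all genes.

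The arrays had medians from 5.50 to 5.54 on the log2 scale on which all values are given. Cardiomyocyte markers were bright in every array, with a log2 summed level of 16.59 to 16.61 in control and 16.48 to 16.63 in sickle over 15 genes. Sickle replicate 3 stood apart, where 340 genes exceeded the mean of the other sickle arrays by over 2-fold, a count of 13 to 25 when the same was done for each other array. The 14 markers of fibroblasts and macrophages, taken as 1 list, had medians 0.03, 0.25 and 1.51 above control in the respective sickle replicates 1, 2 and 3. Control replicate 3 differed from its mates in 8 atrial markers, with a median of 0.68 from the control mean against -0.35 and -0.33. Named after their values were seen, Sln had 3.16, 3.36 and 8.08 and Myl7 4.31, 4.51 and 7.75 in control. Nppa (12.63, 12.72 and 12.74) and Bmp10 (4.82, 5.33 and 5.01) did not stand out there. The part of atrial tissue in the values below was not tested.

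Members of the family differ in where they work. Car1, Car2, Car3 and Car7 are cytosolic, Car5b is mitochondrial, Car4 is held on the outer cell surface by a lipid anchor, Car9 and Car12 span the membrane with the enzyme outside, and Car8 is a related protein without the enzyme activity. In red cells the cytosolic enzymes load carbon dioxide as bicarbonate, which leaves through the band 3 exchanger Slc4a1. In the capillaries and muscle of the heart, enzymes on the cell surface speed the same reaction outside the cell and buffer surface pH.

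**Figure D1:**
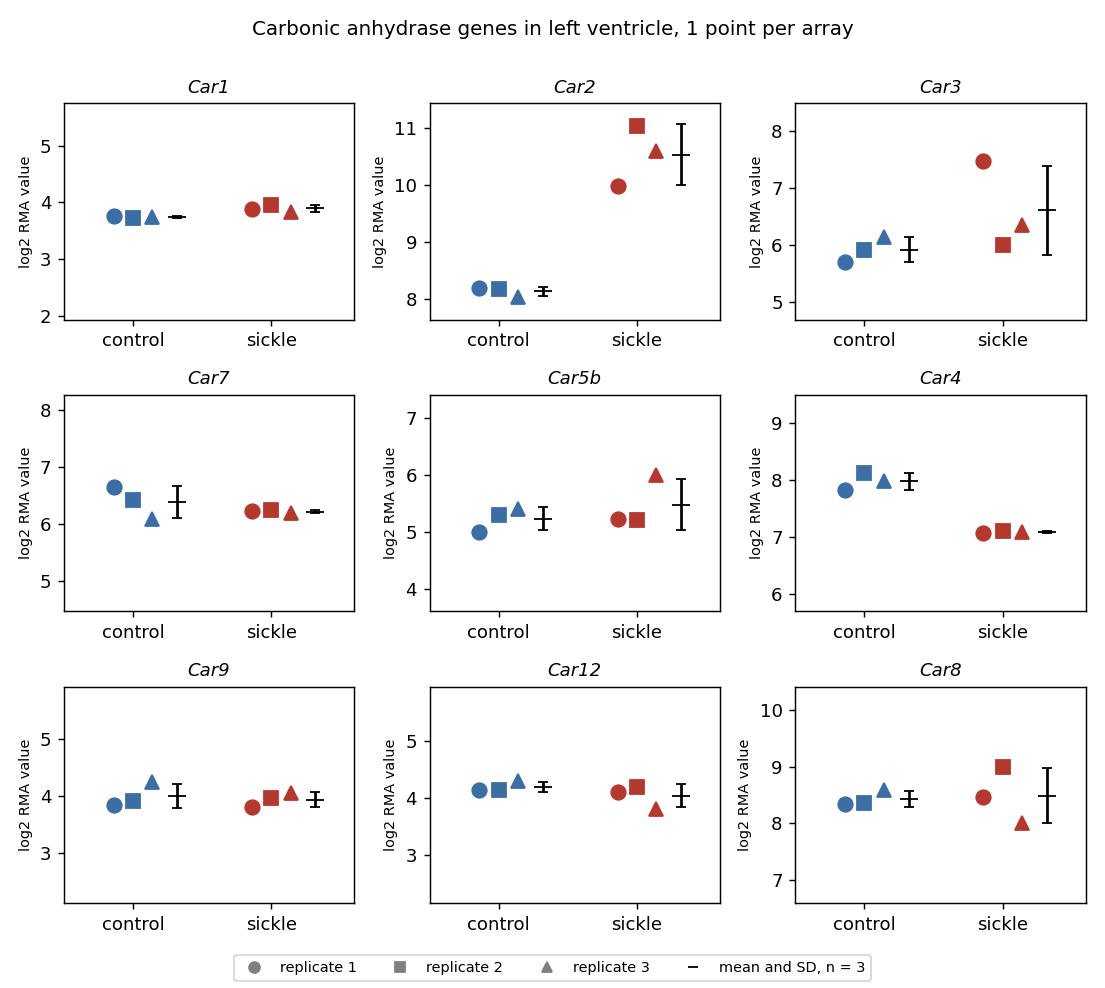
Log2 value of each of the 9 carbonic anhydrase genes in each array, with control arrays in blue, sickle arrays in red, replicate numbers by marker shape, and the mean and SD (n = 3) beside each group. All panels span the same height on the log2 axis. Car2 lay between 8.04 and 8.19 in control and between 9.98 and 11.04 in sickle, while Car4 lay between 7.82 and 8.12 in control and between 7.06 and 7.10 in sickle.

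The comparison asked which carbonic anhydrases differed between the ventricle with sickle haemoglobin and that with non-sickling human haemoglobin. Car2 rose and Car4 fell, and the other 7 genes did not pass an adjusted p of 0.05 in limma's fit over all genes. Of the 21506 genes, 0.181% passed that threshold in either direction, 0.167% higher and 0.0139% lower in sickle. Sickle and control arrays did not overlap for 3 of the 9 genes, Car1 and Car2 higher and Car4 lower, beside 16.0% of all genes (7.61% higher and 8.36% lower). An unadjusted p under 0.05 was reached by 2 of the 9, beside 8.69% of all genes. The median difference, sickle minus control, was 0.07 over the 9 genes and -0.01 over all genes.

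Car2, the fast cytosolic enzyme abundant in red cells and present in many other cells, had 8.19, 8.18 and 8.04 in control replicates 1, 2 and 3 and 9.98, 11.04 and 10.60 in sickle replicates 1, 2 and 3. Every sickle array was above every control array, and the sickle arrays were spread more widely than the control arrays. The means were 8.13 ± 0.08 and 10.54 ± 0.53 (SD, n = 3), a 5.30-fold difference (2.41 on the log2 scale, 95% interval 1.85 to 2.97; limma adjusted p = 0.0162). The call depended on which arrays were in the fit. It was kept without sickle replicate 1 (adjusted p = 0.0026) or 2 (0.0239) and lost without control replicate 1 (0.0991), 2 (0.118) or 3 (0.129) or sickle replicate 3 (0.0675), while the difference stayed between 2.15 and 2.69.

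Car1, the other cytosolic enzyme known from red cells, had 3.77, 3.72 and 3.74 in control and 3.88, 3.96 and 3.84 in sickle. All 3 sickle arrays were above all 3 control arrays, but by a difference of 0.15 (95% interval -0.05 to 0.35, adjusted p = 0.649), which did not pass. The deposited table gives no detection call. As a reference for dim rows chosen after the values were seen, 95% of 1081 odorant receptor genes had a mean over the arrays below 4.94, and Car1 (3.82), Car9 (3.97) and Car12 (4.12) lay below that value. Changes of these 3 genes may therefore not be visible in these arrays.

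Markers of red cells moved with Car2. Of 28 such genes listed, 19 were measured, of which 6 passed the test, all higher in sickle, beside 0.167% of all genes. Sickle arrays lay wholly above control for 14 of the 19, beside 7.61% of all genes, and 17 were above control on average. The list's median lay above the control mean by 0.66, 0.78 and 0.77 in sickle replicates 1, 2 and 3, against 1.85, 2.91 and 2.46 for Car2. Its log2 summed level was 11.58 to 11.81 in control and 12.61 to 13.05 in sickle. In tissue RNA, more red cells in the ventricle and more RNA per cell cannot be told apart, and the part of blood content in the value of Car2 was not tested.

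The 6 red-cell genes that rose were Slc4a1 (3.31 ± 0.30, SE), Epb42, a protein of the red-cell membrane skeleton (2.27 ± 0.29), Trim10 (2.19 ± 0.25), the iron importer Slc25a37 (1.88 ± 0.22), Bpgm, which makes the haemoglobin ligand bisphosphoglycerate (1.71 ± 0.12), and Rhag, a red-cell gas and ammonium channel protein (1.57 ± 0.21). Their adjusted p lay between 0.00491 and 0.0484. The count of 6 was kept without sickle replicate 1 and was 2, 1 and 0 without control replicates 1, 2 and 3 and 2 and 3 without sickle replicates 2 and 3. Within the sickle group the order of the arrays was not the same for all of them. Slc4a1 had 9.30, 9.998 and 10.55 and was highest in replicate 3, whereas Rhag (5.47, 6.31 and 5.84), Bpgm (10.02, 10.38 and 10.20) and Car2 were highest in replicate 2 and lowest in replicate 1.

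**Figure D2:**
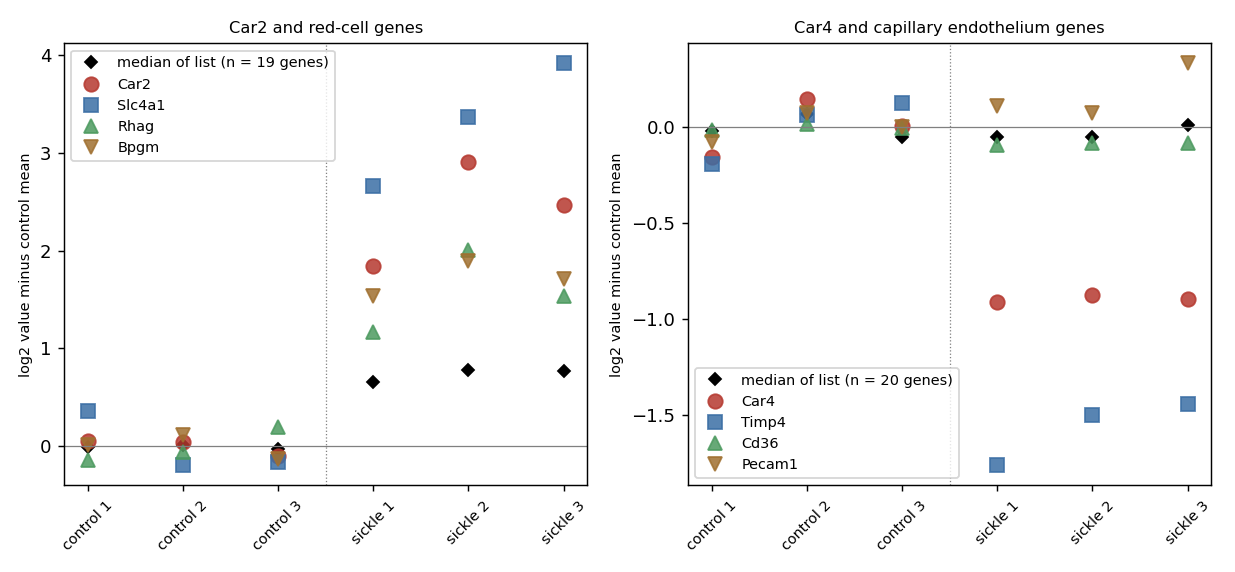
Log2 value minus the control mean in each of the 6 arrays, for Car2 with red-cell genes (left) and Car4 with genes of the capillary endothelium (right); black diamonds are the median of the whole marker list, over 19 and 20 genes. Car2 and its list were above control in every sickle array, while Car4 lay at -0.91 to -0.88 and the capillary list stayed between -0.05 and 0.01 in the sickle arrays.

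No neighbouring gene of the family passed with Car2. In the RefSeq gene table for GRCm38.p6, Car13, Car1, Car3 and Car2 follow each other on chromosome 3 with 0 other protein-coding genes between them. Car3, an enzyme of low activity abundant in slow skeletal muscle and fat, had 5.70, 5.92 and 6.14 in control and 7.48, 5.996 and 6.35 in sickle. Sickle replicate 1 was high, and replicate 2 lay inside the control range. The difference of 0.69 did not pass (95% interval -0.12 to 1.50, adjusted p = 0.612) and was 0.26 without sickle replicate 1. In sickle replicates 1, 2 and 3 the median distance from the control mean was -0.01, -0.24 and -0.22 for 8 adipocyte markers and -0.13, 0.12 and -0.25 for 10 skeletal muscle markers. The log2 summed level of the adipocyte list was 10.96, 11.09 and 11.31 in control and 10.63, 10.79 and 10.49 in sickle. The skeletal muscle list summed to 11.51, 11.61 and 11.58 in control and 11.65, 11.56 and 11.33 in sickle. Each sum mostly reflects the brightest gene of its list, named after the values were seen. These were Pnpla2 (10.42, 10.55 and 10.81 in control and 10.07, 10.28 and 9.86 in sickle) and Ckm (11.34, 11.44 and 11.41 in control and 11.49, 11.38 and 11.16 in sickle). Adipoq (means 3.49 in control and 3.34 in sickle) and Mylpf (3.35 and 3.22) lay below the dim reference of 4.94. Both were chosen after their values were seen, and other genes of the lists lay above that value. The sums thus cannot be read as adipocyte or skeletal muscle content. The part of these cell types in the value of Car3 was not tested.

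Car7, a cytosolic enzyme known mainly from brain, had 6.65, 6.43 and 6.08 in control and 6.22, 6.24 and 6.19 in sickle. The sickle arrays lay close together inside the control range (difference -0.17, 95% interval -0.51 to 0.17, adjusted p = 0.748). Car5b, the mitochondrial enzyme found in many tissues, had 5.01, 5.30 and 5.40 in control and 5.23, 5.22 and 6.01 in sickle. Its difference of 0.25 (95% interval -0.27 to 0.77, adjusted p = 0.758) rested on sickle replicate 3, and was -0.01 without that array. Cytosolic Car13, which was not among the listed genes, had the same shape, with 5.68, 5.97 and 6.09 in control and 5.89, 5.90 and 6.64 in sickle, and its difference went from 0.23 to -0.02 without sickle replicate 3. That is the array in which fibroblast and macrophage markers were raised, and their part in these values was not tested.

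Car4 was the membrane-bound enzyme that fell. It had 7.82, 8.12 and 7.98 in control and 7.06, 7.10 and 7.08 in sickle. All sickle arrays were below all control arrays and nearly equal to each other. The means were 7.97 ± 0.15 and 7.08 ± 0.02 (SD, n = 3), 1.86-fold lower in sickle (difference -0.90, 95% interval -1.14 to -0.65; limma adjusted p = 0.0287). The size was -0.97 to -0.82 with any array left out, but the call was lost in all 6 of those fits. Without control replicates 1, 2 and 3 the adjusted p was 0.0815, 0.192 and 0.202, and without sickle replicates 1, 2 and 3 it was 0.107, 0.0984 and 0.0791.

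Car4 is known as a marker of capillary endothelium and is also made by heart muscle. Of 20 genes of the capillary endothelium, 10 were above and 10 below control, the median difference was -0.03, and 1 passed, Timp4, a metalloproteinase inhibitor (8.25, 8.51 and 8.57 in control and 6.68, 6.94 and 7.001 in sickle; difference -1.57 ± 0.13, adjusted p = 0.0087, and 0.0696 and 0.079 without control replicates 2 and 3). Sickle arrays lay wholly below control for 5 of the 20 genes, beside 8.36% of all genes, and wholly above for 4, beside 7.61%. The other genes named here were chosen after their values were seen, and none passed. Aqp7, a glycerol channel, was wholly lower in sickle (10.01, 10.19 and 10.15 in control and 9.51, 9.48 and 9.37 in sickle; difference -0.66 ± 0.10, adjusted p = 0.0737). Fabp4 (-0.19 ± 0.09), Cd36 (-0.09 ± 0.08) and Aqp1 (-0.31 ± 0.12), which is also on the gas channel list below, were wholly lower too. Timp4, Aqp7 and Aqp1 were the 3 of the 20 genes with an unadjusted limma p under 0.05, beside 8.69% of all genes. Rgcc (-0.27 ± 0.13), Gpihbp1 (-0.05 ± 0.13), Tcf15 (-0.06 ± 0.17) and Lpl (0.00 ± 0.10) overlapped between groups, and Meox2 (0.20 ± 0.09) was wholly higher. Of the pan-endothelial genes, Pecam1 (0.17 ± 0.11) and Flt1 (0.21 ± 0.09) were wholly higher in sickle, while Cdh5 (-0.07 ± 0.10) and Kdr (0.23 ± 0.11) overlapped. The list's log2 summed level was 14.96 to 15.03 in control and 14.90 to 14.94 in sickle. Cardiomyocyte markers had a median difference of -0.06, with 0 of 15 past limma's adjusted threshold and 1 at an unadjusted p under 0.05. Fewer Car4-expressing cells and less Car4 RNA per cell cannot be told apart in these samples.

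Car9 and Car12, the membrane-spanning enzymes that low oxygen raises in many cells, did not pass. Car9 had 3.85, 3.91 and 4.24 in control and 3.80, 3.96 and 4.06 in sickle (difference -0.06, 95% interval -0.37 to 0.25, adjusted p = 0.907). Car12 had 4.15, 4.14 and 4.30 in control and 4.12, 4.20 and 3.82 in sickle (difference -0.15, 95% interval -0.44 to 0.13, adjusted p = 0.731). The groups overlapped for both genes. Of 13 measured targets of the hypoxia response, 0 passed in limma's fit and 3 had an unadjusted p under 0.05, beside 8.69% of all genes. In all, 10 were above control, and sickle arrays lay wholly above control for 5, beside 7.61% of all genes. The smallest p belonged to Egln3, an oxygen-sensing hydroxylase (0.65 ± 0.17, adjusted p = 0.386), Adm (0.31 ± 0.11, 0.511) and the glucose carrier Slc2a1 (0.39 ± 0.14, 0.522).

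Promoter sequences show the stretch around the start of Car4, Car9 and Car12, the 3 listed membrane-bound enzymes with a row of their own, of which Car4 passed the test. Each runs 5′ to 3′ on the plus strand of GRCm38.p6, from 250 bases before to 30 bases after the gene's start, taken from RefSeq. Capitals mark ACGTG on either strand (CACGT on the other), the core of hypoxia response elements, and GATAA on either strand (TTATC on the other), a core bound by GATA factors. The motifs do not overlap.
Car4, chr11:84957504-84957783: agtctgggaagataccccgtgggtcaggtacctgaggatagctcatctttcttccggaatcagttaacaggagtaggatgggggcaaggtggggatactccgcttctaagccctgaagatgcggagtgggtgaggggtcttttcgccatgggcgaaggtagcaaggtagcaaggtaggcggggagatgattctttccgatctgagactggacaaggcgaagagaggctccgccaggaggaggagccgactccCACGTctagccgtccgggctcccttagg
Car9, chr4:43506776-43507055: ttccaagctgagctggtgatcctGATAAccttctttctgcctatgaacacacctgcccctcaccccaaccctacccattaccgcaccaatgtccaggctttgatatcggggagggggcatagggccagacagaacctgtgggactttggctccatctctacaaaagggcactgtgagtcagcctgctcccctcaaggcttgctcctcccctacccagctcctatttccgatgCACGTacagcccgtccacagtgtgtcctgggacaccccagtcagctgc
Car12, chr9:66713436-66713715: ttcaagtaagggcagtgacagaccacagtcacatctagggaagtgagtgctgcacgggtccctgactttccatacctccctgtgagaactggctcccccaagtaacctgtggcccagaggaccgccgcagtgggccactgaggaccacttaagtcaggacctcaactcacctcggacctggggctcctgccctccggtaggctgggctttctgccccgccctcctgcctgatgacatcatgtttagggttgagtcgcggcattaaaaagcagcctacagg

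The hypoxia core occurred in Car9, 18 bases before the start, and in Car4, 3 bases after it, and not in the Car12 window. The window of Car14, whose expression was not analysed here, held it 7 bases before the start. It was present in 18.5% of 32851 promoter windows of the same length. GATAA occurred in Car9, 227 bases before the start, and in 24.4% of all windows. A match describes the letters and is not evidence of a site.

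Car8, which lacks the enzyme activity and is known for binding the inositol trisphosphate receptor, had 8.34, 8.35 and 8.59 in control and 8.47, 8.99 and 8.01 in sickle. The sickle arrays spread to both sides of control, with replicate 2 highest and replicate 3 lowest of the 6. The difference was 0.07 (95% interval -0.47 to 0.60, adjusted p = 0.947) and turned to -0.18 without sickle replicate 2.

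**Figure D3:**
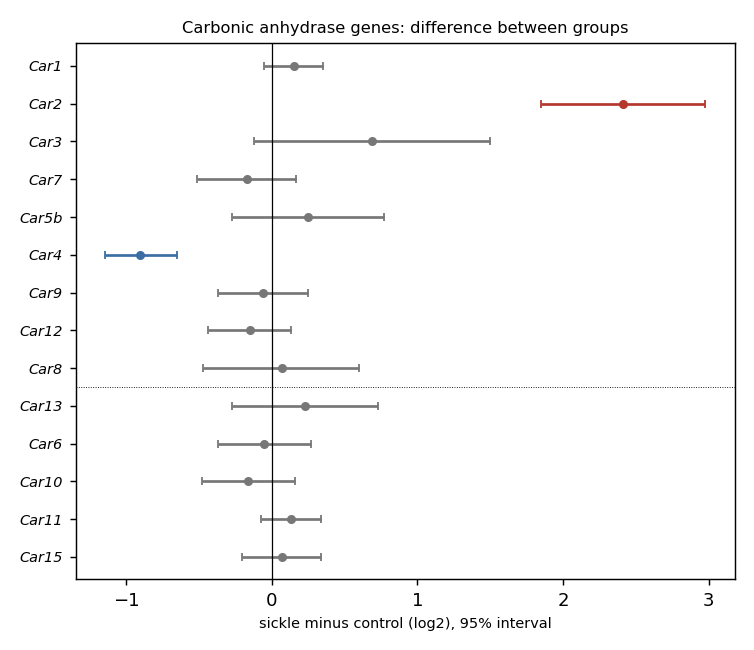
Difference in log2 value, sickle minus control, with its 95% interval from limma for the 9 genes described (above the dotted line) and 5 further carbonic anhydrase genes (below it). Red marks a gene that passed higher (Car2, 2.41), blue 1 that passed lower (Car4, -0.90), and grey the rest, whose intervals all include 0.

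Set side by side, Car2, 1 of the enzymes known from red cells, and Car4, 1 of the membrane-bound enzymes, moved in opposite directions in every sickle array. The log2 ratio of the Car2 row to the Car4 row was 0.37, 0.06 and 0.06 in control and 2.92, 3.95 and 3.52 in sickle, a change of 3.30 in the ratio. As both genes were known to differ, this is given with no test. Of the other members of these classes, Car1 differed by 0.15, Car9 by -0.06 and Car12 by -0.15, and none passed; whether they differ from Car2 or Car4 was not tested.

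Among 6 further genes of the family, 5 had a row of their own and 0 passed in limma's fit, with 0 at an unadjusted p under 0.05. Car11, related to the enzymes but without their activity, had 6.74, 6.62 and 6.75 in control and 6.79, 6.86 and 6.86 in sickle, all sickle arrays above control by a small difference of 0.13 (95% interval -0.07 to 0.34, adjusted p = 0.686). Car10, likewise inactive, differed by -0.16, secreted Car6 by -0.05 and membrane-bound Car15 by 0.07, with adjusted p between 0.748 and 0.934. Car5a was not analysed here.

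Carbonic anhydrases work with carriers of bicarbonate, protons and lactate. Of 19 measured bicarbonate carriers, 1 rose, the red-cell exchanger Slc4a1, from 6.997, 6.44 and 6.47 in control to 9.30, 9.998 and 10.55 in sickle (adjusted p = 0.0109). The median of the 19 genes was 0.05. The cardiac anion exchanger Slc4a3 had 9.25, 9.30 and 9.19 in control and 9.17, 9.07 and 8.83 in sickle, all lower, and did not pass (-0.22 ± 0.11, adjusted p = 0.612). The sodium bicarbonate cotransporter Slc4a4 (0.22 ± 0.15, adjusted p = 0.701) overlapped between groups, and non-overlap was seen for 3 of the 19 genes, beside 16.0% of all genes. Slc4a3 and Slc4a4 were chosen after their values were seen.

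Of 17 measured proton and lactate genes, Emb, a membrane partner of the lactate carriers, rose from 5.77, 6.01 and 6.04 in control to 7.19, 7.69 and 8.12 in sickle (1.73 ± 0.22, adjusted p = 0.0431). A dimmer row of Emb differed by -0.02, so its rows disagreed. The lactate carrier Slc16a1 (0.05 ± 0.12) and its partner Bsg (0.03 ± 0.09), chosen after their values were seen, did not pass (adjusted p = 0.916 and 0.94), and the list's median was 0.03. Over both lists, 2 genes passed with 6 arrays and without sickle replicate 1. Without control replicates 1, 2 and 3 the count was 1, 0 and 0, and without sickle replicates 2 and 3 it was 0 and 1, the remaining gene being Slc4a1.

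Of 7 gas channel genes, Rhag rose and the other 6 did not pass. Sickle arrays lay wholly above control for 3 of the 7 and wholly below for 1, beside 7.61% and 8.36% of all genes. Besides Rhag, these were Rhd (0.29 ± 0.12, adjusted p = 0.567) and Rhbg (0.16 ± 0.09, 0.653), both higher, and the water and carbon dioxide channel Aqp1, lower (9.47, 9.33 and 9.32 in control and 9.02, 9.27 and 8.90 in sickle; -0.31 ± 0.12, 0.551), all 3 chosen after their values were seen. Rhag was called without sickle replicate 1 and in none of the 5 fits that left out another array (adjusted p from 0.0657 to 0.298). The list's median was 0.04.

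**Figure D4:**
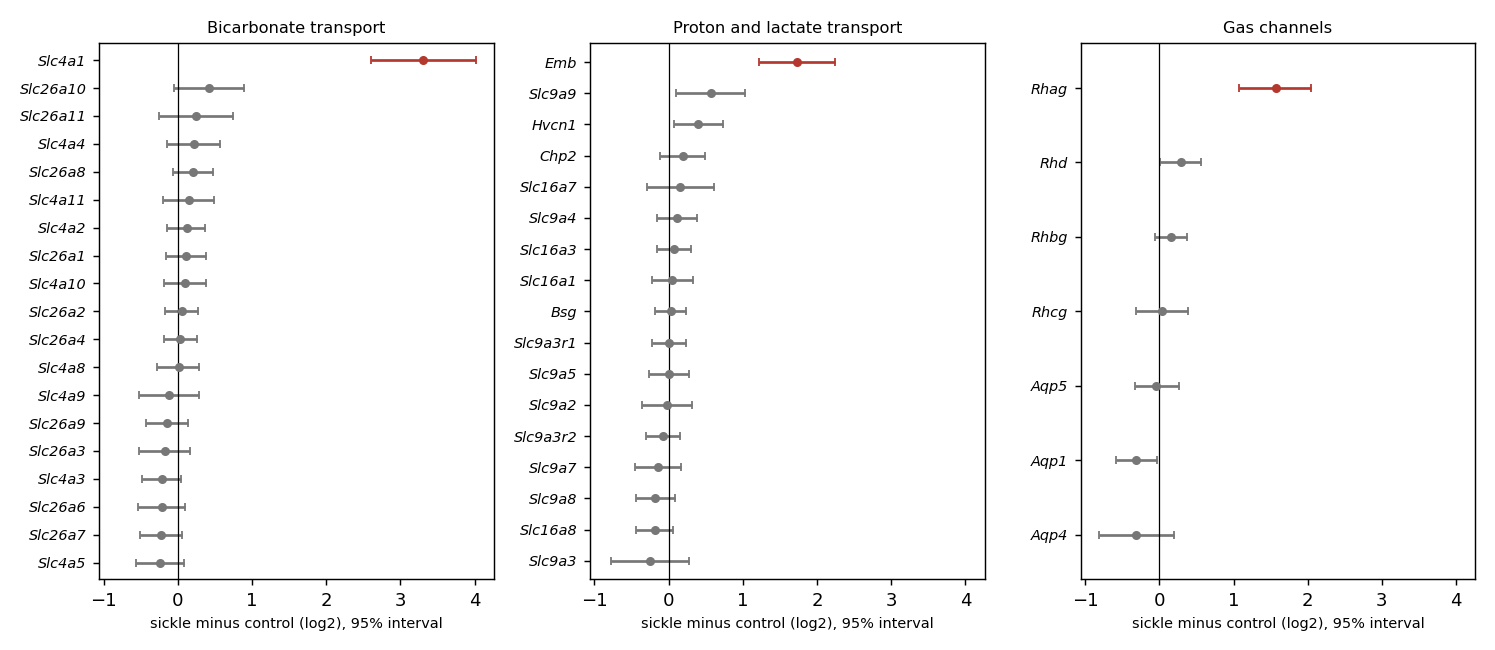
Difference in log2 value, sickle minus control, with its 95% interval from limma for the measured genes of the bicarbonate (19 genes), proton and lactate (17) and gas channel (7) lists. Slc4a1, Emb and Rhag, in red, passed higher in sickle; no gene of these lists passed lower.

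The genes whose values followed a member most closely were ranked by Pearson's r over the 6 arrays, given as a description. For Car1, Car2 and Car4 the groups do not overlap, so r is set largely by the gap between groups. It takes no account of the size of a change. The genes were picked for the highest r among all genes tested, apart from predicted or unnamed ones. With 6 arrays, such a search can give a high r for any gene, so r is no evidence of shared control. Car1, Car9 and Car12 also lay below the dim reference. Closest to Car2 were Isg20, an exonuclease (r = 0.9989; 2.00 ± 0.18, adjusted p = 0.0109), Dusp3 (r = 0.9984; 0.22 ± 0.09, 0.564) and Cdcp3 (r = 0.9984; 0.27 ± 0.09, 0.492). Closest to Car4 were the fatty acid receptor Cd36 (r = 0.9957; -0.09 ± 0.08, adjusted p = 0.776), Slco3a1 (r = 0.9940; -0.36 ± 0.09, 0.387) and Teddm3 (r = 0.9932; -0.33 ± 0.09, 0.41). Isg20 alone of these 6 passed the test, and lost its call without any 1 control array (adjusted p = 0.0719, 0.0768 and 0.102).

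For Car5b the closest gene of all was its relative Car13 (r = 0.9990), followed by Csf2ra, a cytokine receptor of myeloid cells (r = 0.9971), and Shtn1 (r = 0.9964). All 3 were highest in sickle replicate 3. Closest to Car1 were Nostrin (r = 0.9966), Osbpl8 (0.9944) and Sptbn1 (0.9935), and to Car3 Ints4 (0.9782), Nsun4 (0.9768) and Lrrfip2 (0.9731). Car7 was followed by Spag11b (0.9975), Fig4 (0.9926) and Boll (0.9918), Car8 by Scgb1b3 (0.9929), Tnpo3 (0.9925) and Bsn (0.9902), Car9 by Cmpk1 (0.9823), Aldh1l2 (0.9746) and Crcp (0.9732), and Car12 by Thap12 (0.9975), Phyh (0.9951) and Mpc1 (0.9942). None of the 21 genes named for the 7 members other than Car2 and Car4 passed in limma's fit, and 2 had an unadjusted p under 0.05.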

How the data were processed

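The authors deposited log2 values after RMA (background correction, quantile normalisation across arrays and summary of probes), per the submitters' processing notes; the scale was taken from the range of the values, and version, settings, scan dates and build are not given here by any label. Mouse Gene 2.0 ST arrays were used, per the labels. Of 25293 rows, 22030 had 1 gene symbol, 685 several and 2578 none. The brightest row stood for each of 465 genes with more than 1, leaving 21506 genes, with no filter on dim rows. Limma 3.58.1 in R 4.3.3 (lmFit, eBayes, group only, two-sided) was run over all of them with Benjamini-Hochberg adjustment at 0.05, and was tested on simulated data. Differences are sickle minus control. Arrays give no read depth, so their number limits the precision. The rule for named genes took all members, list genes past the threshold or otherwise the 3 with the smallest p, and the 3 genes most like each member. Its picks are not all named for the cardiomyocyte, adipocyte, skeletal muscle, fibroblast and macrophage, and atrial lists, which are given mainly by their levels. Genes named beyond the rule are marked as chosen after their values were seen. Members and lists were chosen with earlier results of these data known. Same-numbered arrays did not deviate together in every pair (r = 0.11, -0.05 and 0.05). Figures used matplotlib 3.10.9.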

Additional observations from a re-analysis of the deposited data

How the results depend on the processing

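Of the 9 genes, 2 passed in the fit as described. With the replicate number as a block, 0 passed (Car2 at an adjusted p of 0.0508 and Car4 at 0.107), all genes called fell from 39 to 12, and the bicarbonate and proton transport genes called went from 2 to 0; the numbers are not known to pair the mice. Without shared variance 0 of the 9 and 0 of all genes passed by the ordinary linear model. At the same adjusted threshold limma's fit called 2 of the 9 and 39 of all genes. Unadjusted, 2 of the 9 and 1868 of all genes had a p under 0.05 in limma's fit. With an array left out, 0 to 1 of the 9 genes, 4 to 36 of all genes and 0 to 2 of the transport genes passed. The sign of Car5b (-0.01 to 0.38), Car8 (-0.18 to 0.31), Car9 (-0.14 to 0.06), Car6 (-0.17 to 0.04), Car13 (-0.02 to 0.35) and Car15 (-0.0039 to 0.15) turned with an array left out, none of them called. The cause of these shifts was not tested, beyond fewer arrays. An intensity trend, leaving out dim genes, quantile normalisation anew, centring, array weights and other choices of rows kept the calls of Car2 and Car4.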
